A study of Mus musculus with 12 samples.

Results

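The genes described here serve glucose uptake and glycolysis to lactate, with Txnip as an inhibitor of uptake. They are Txnip, Slc2a1, Slc2a3, Hk1, Hk2, Pfkl, Aldoa, Gapdh, Pgk1 and Ldha, found by symbol among the genes counted in every library, 10 of 32285 genes in all. The 10 genes were chosen from earlier results of these same data, and which values were used to choose them is not recorded. Their levels and diet differences are therefore descriptions and not independent evidence of a pattern. The symbol Aldoa occurs under a pair of identifiers. ENSMUSG00000030695 was used, while ENSMUSG00000114515 stayed at or below a mean of 0.249 counts per 1000000 UMIs (CPM) in every cell class.

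Paw epidermis came from wild-type C57BL/6J mice of both sexes that were 6 to 8 weeks old when they started 10 weeks on a regular diet (RD, 11% fat) or on a high-fat diet (HFD, EnvigoTD88137, with 42% fat), and 16 to 18 weeks old at harvest. This made 4 groups of 3 libraries each (Male RD and Male HFD, Female RD and Female HFD), with 1 mouse per library. The paper names wild-type mice for most experiments and describes no transgene or drug for those sequenced. It describes a glucose tolerance test, with injected glucose, after the 10 weeks of diet. The epidermal sheet of hairless hind paw skin was lifted off with dispase, dissociated with TrypLE and captured in 10x Genomics droplets, which count the 3' ends of transcripts as unique molecular identifiers (UMIs). Sheets prepared in this way hold keratinocytes together with the immune cells that live among them.

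Glucose enters most cells through facilitative transporters of the Slc2a family, of which Slc2a1 encodes GLUT1 and Slc2a3 encodes GLUT3. Hexokinases trap it as glucose 6-phosphate, phosphofructokinase and aldolase (Pfkl, Aldoa) commit and split the sugar, Gapdh and Pgk1 carry out the reactions that capture its energy, and lactate dehydrogenase A (Ldha) converts pyruvate to lactate. Txnip, the thioredoxin-interacting protein, is an arrestin-fold protein that brings glucose transporters in from the cell surface and whose transcription rises with intracellular glucose. Basal keratinocytes of the epidermis divide on the basement membrane, move through the suprabasal or spinous layers while they make keratin 10, and end as terminally differentiated cells that build the cornified envelope. Langerhans cells (LCs) are the macrophage-lineage antigen-presenting cells of the epidermis, and resident T cells share that space.

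Of 140392 deposited barcodes, 126375 passed the limits on genes and mitochondrial UMIs, and each library held between 134449247 and 194673581 UMIs. The median kept cell had between 6577 and 15047.5 UMIs, depending on the library. In males these medians were 6577 to 10937 on RD and 10933 to 15047.5 on HFD. The median mitochondrial share over deposited barcodes was 3.09% to 3.40% in Male RD and 3.48% to 3.68% in Male HFD libraries, without overlap. In females it was 1.98% to 2.02% and 2.02% to 2.66%, with overlap. The part of depth and mitochondrial share in the diet results was not tested. Any pair of libraries shared between 15 and 70 barcodes, at most 0.5639%, and all 12 libraries matched their sex label. Clusters were named from fixed markers. In male RD libraries, the summed level of the 10 LC markers was between 70313 and 75262 CPM in LC-like cells and at most 36.3 in basal keratinocytes. T cell markers summed to between 5663 and 11741 CPM in male T cell-like cells and to between 2823 and 5284 in female ones. The LC-like and T cell-like clusters, of 1343 and 220 cells in males and 2128 and 339 in females, were subclustered together. From both clusters together, a subcluster of 305 male and 370 female cells that also carried keratinocyte transcripts was left out. LC-like cells then numbered 1066 in males and 1811 in females. T cell-like cells numbered 192 and 286, basal cells 16985 and 15955, proliferating cells 9188 and 11548, suprabasal or spinous cells 27591 and 27783, terminally differentiated cells 3877 and 1282, and migratory cells 2943 and 5193. The file headers name Cell Ranger 6.1.0 for every male and 7.2.0 for every female library. Sex and counting software cannot be told apart, so levels were never compared between males and females.

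On GRCm38, Txnip lies on chromosome 3 (96557957 to 96561883, plus strand), Slc2a1 on chromosome 4 (119108711 to 119137983, plus strand) and Slc2a3 on chromosome 6 (122727809 to 122801640, minus strand). Chromosome 6 also holds Hk2 (82725025 to 82774454, minus strand) and Gapdh (125161715 to 125166467, minus strand). Hk1 (62268855 to 62379908) and Pfkl (77986947 to 78010083) lie on the minus strand of chromosome 10. Aldoa (126795234 to 126800751, minus strand) and Ldha (46841475 to 46855627, plus strand) lie on chromosome 7, and Pgk1 (106187100 to 106203699, plus strand) on chromosome X. All are protein-coding genes.

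Promoter windows from RefSeq (GRCm38.p6, 250 bases before to 50 after a gene's start) were matched for 9 of the 10 genes, in 13 windows; Slc2a3 was not among them. The 4 genes below, with the Txnip relative Arrdc4, are shown because their diet or class pattern is described further on. For Txnip, capitals mark a pair of E-box-like motifs 5 bases apart, the spacing of the site at which glucose-sensing factors bind, here each within 1 mismatch of CACGTG. For the others, capitals mark the hypoxia response cores ACGTG and GCGTG on either strand, which overlap where they share a CACGTG.

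Txnip, chr3:96557707-96558006, plus strand: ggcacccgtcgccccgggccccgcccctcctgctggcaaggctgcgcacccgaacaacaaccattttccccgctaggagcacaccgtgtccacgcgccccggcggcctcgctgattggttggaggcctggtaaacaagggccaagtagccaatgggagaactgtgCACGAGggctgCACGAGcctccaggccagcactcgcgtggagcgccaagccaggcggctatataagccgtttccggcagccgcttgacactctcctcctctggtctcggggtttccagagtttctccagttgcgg

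Arrdc4, chr7:68749189-68749488, minus strand: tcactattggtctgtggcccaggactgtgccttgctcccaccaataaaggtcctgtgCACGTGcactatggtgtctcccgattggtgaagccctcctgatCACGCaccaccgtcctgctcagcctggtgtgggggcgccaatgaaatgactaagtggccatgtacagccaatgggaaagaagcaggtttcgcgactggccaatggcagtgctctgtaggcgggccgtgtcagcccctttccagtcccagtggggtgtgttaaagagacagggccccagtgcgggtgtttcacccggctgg

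Slc2a1, chr4:119108495-119108794, plus strand: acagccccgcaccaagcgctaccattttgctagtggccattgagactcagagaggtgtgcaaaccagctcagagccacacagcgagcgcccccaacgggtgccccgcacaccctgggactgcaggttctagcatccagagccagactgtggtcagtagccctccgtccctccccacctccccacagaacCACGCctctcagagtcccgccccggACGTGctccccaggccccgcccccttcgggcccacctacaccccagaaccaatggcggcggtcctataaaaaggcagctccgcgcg

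Pfkl, chr10:78009758-78010057, minus strand: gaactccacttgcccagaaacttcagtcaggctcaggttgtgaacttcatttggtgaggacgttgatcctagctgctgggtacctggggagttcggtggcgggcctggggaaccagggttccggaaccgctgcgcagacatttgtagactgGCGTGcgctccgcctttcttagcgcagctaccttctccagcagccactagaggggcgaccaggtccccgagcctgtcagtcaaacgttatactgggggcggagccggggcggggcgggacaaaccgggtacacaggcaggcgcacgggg

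Ldha, chr7:46845554-46845853, plus strand: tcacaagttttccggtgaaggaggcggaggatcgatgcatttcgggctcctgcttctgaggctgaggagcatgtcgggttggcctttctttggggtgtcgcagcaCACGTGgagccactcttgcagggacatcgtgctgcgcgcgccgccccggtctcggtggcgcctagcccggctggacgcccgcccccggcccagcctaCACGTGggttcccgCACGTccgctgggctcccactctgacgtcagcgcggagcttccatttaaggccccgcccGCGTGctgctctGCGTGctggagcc

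In the Txnip window the pair of E-box-like motifs began 85 bases before the start. Such a pair was present in 136 of 32851 windows of the same length, or 0.414%; the tolerance of 1 mismatch was set after the Txnip window had been seen. The strict carbohydrate response element, searched by name, was in none of the windows of the 9 genes and in 0.119% of all windows. At least 1 hypoxia response core was in 11 of the 13 windows, with at least 1 such window for each of the 9 genes, and in 43.8% of all windows. ACGTG was in 8 of the 13 and in 19.6% of all windows, and GCGTG in 7 and in 32.4%. CACGTG, in 7.15% of all windows, was in 1 of the 13, a window of Ldha. The Slc2a1 window held TATAAA, 29 bases after the start, as 13.6% of windows do at some position. GGGCGG was in 8 of the 13 windows and in 35.7% of all windows, and CCAAT in 6 and in 37.4%. The Arrdc4 window held 6 CCAAT motifs and a CACGTG 193 bases before the start. All were searched on both strands, and a match describes letters and not binding.

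Levels are given as CPM, out of the UMIs summed over the cells of a class in a library, as a mean ± SD over the 6 libraries of a sex. Each UMI stands for 1 molecule captured at its 3' end, so the values are not scaled to transcript length, and genes may differ in how well they are captured. The levels fell into a few layouts. Txnip was highest in T cell-like cells and fell through keratinocyte differentiation, Slc2a1 was highest in basal cells, and Hk2 was higher in suprabasal than in basal cells. Ldha led in suprabasal cells, Gapdh and Pgk1 were high in proliferating cells, and all 3 were low in terminally differentiated cells. Hk1, Pfkl and Ldha were lower in LC-like than in basal cells. With the left-out subcluster added to LC-like cells, these means rose but stayed below the basal ones. In males they went from 7.10 to 16.9, 14.4 to 23.4 and 248 to 369 CPM. In females they went from 12.3 to 19.9, 18.3 to 21.5 and 212 to 269 CPM. These statements describe levels and carry no test, because the classes are clusters of the same cells.

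**Figure D1:**
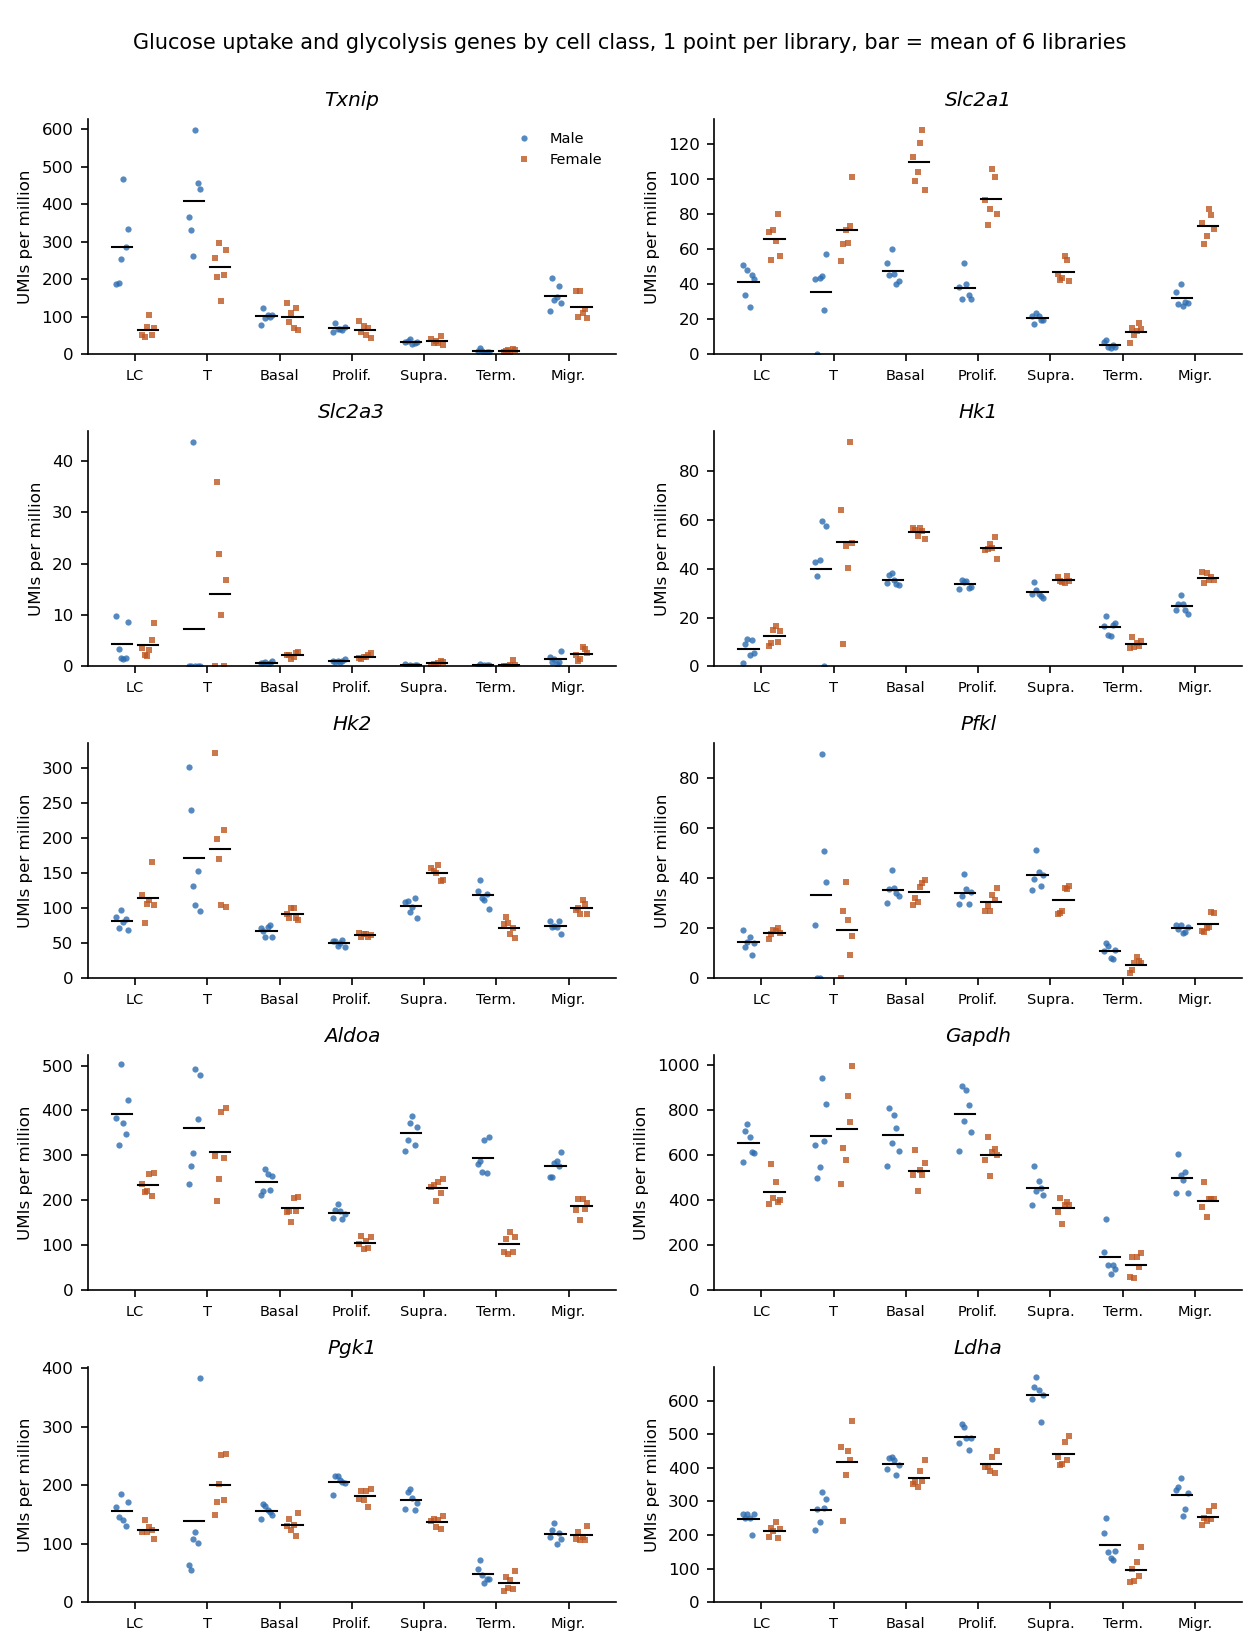
Level of each of the 10 genes in CPM in 7 cell classes, with 1 point per library (6 male, 6 female, coloured by sex) and a bar at the mean. Txnip in males stands at a mean of 287 CPM in LC-like and 102 CPM in basal cells, and Gapdh at 688 CPM in male basal and 147 CPM in male terminally differentiated cells.

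Txnip varied widely over classes. In male libraries T cell-like cells had 409 ± 117 CPM of it and LC-like cells 287 ± 105 CPM, with a lowest, median and highest LC-like library of 187, 270.1 and 467 CPM. Migratory cells stood at 156 ± 31.8 CPM, basal cells at 102 ± 14.9 (78.6, 102 and 125), proliferating cells at 69.7 ± 7.96, suprabasal cells at 33.5 ± 3.86 and terminally differentiated cells at 9.01 ± 4.76. In this order from high to low, the ranges of neighbours overlapped from T cell-like to proliferating cells and were apart below them. LC-like cells were above basal cells in 6 of 6 male libraries, by 2.82-fold.

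In female libraries the place of LC-like cells was another. Txnip stood at 232 ± 57.0 CPM in T cell-like, 127 ± 32.7 in migratory, 99.0 ± 29.3 in basal, 66.2 ± 22.0 in LC-like, 65.0 ± 16.5 in proliferating, 34.9 ± 8.53 in suprabasal and 10.1 ± 3.34 in terminally differentiated cells. LC-like cells ranged from 47.3 over 60.8 to 106 CPM, a range that overlapped that of basal cells, and were above basal cells in 2 of 6 libraries, with a ratio of 0.669. Whether the ratio of LC-like to basal cells differs between the sexes was not tested, and sex and software cannot be told apart. Within keratinocytes the sexes were alike in layout: basal over suprabasal was 3.03 in males and 2.83 in females, and basal over terminally differentiated 11.3 and 9.83. T cell-like cells exceeded basal cells in 6 of 6 libraries of each sex, by 4.03-fold and 2.34-fold.

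Slc2a1, the transporter for basal glucose uptake, was at 47.6 ± 7.24 CPM in male basal cells, with libraries from 40.4 to 59.9. LC-like cells had 41.4 ± 9.23, proliferating 37.9 ± 7.76, T cell-like 35.7 ± 20.3, migratory 32.1 ± 4.96, suprabasal 20.8 ± 2.19 and terminally differentiated cells 5.37 ± 1.76 CPM. In females the means were 109.8 ± 13.1 in basal, 88.8 in proliferating, 73.4 in migratory, 71.1 in T cell-like, 66.1 in LC-like, 47.3 in suprabasal and 13.1 CPM in terminally differentiated cells. Only the steps around the suprabasal class in males and before the terminally differentiated class in females left a gap between neighbouring ranges. Basal cells held 2.28-fold (males) and 2.32-fold (females) the suprabasal level.

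Slc2a3, the high-affinity transporter of neurons and leukocytes, was sparse. T cell-like cells had 7.28 ± 17.8 CPM in males, where all UMIs came from Male RD replicate 3 (43.7 CPM), and 14.2 ± 13.9 in females. LC-like cells had 4.39 ± 3.78 and 4.14 ± 2.42 CPM, against 0.745 and 2.16 in basal and 0.262 and 0.620 in suprabasal cells. In male LC-like cells it was above the basal level in 6 of 6 libraries.

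The hexokinases differed in the step from basal to suprabasal cells, where Hk1 was lower and Hk2 higher. Hk1, the housekeeping form, was lowest in male LC-like cells, at 7.10 ± 3.97 CPM, and next to lowest in female ones, at 12.3 ± 3.33. With the left-out subcluster added to LC-like cells, terminally differentiated cells were the lowest for Hk1 in males. Basal cells had 35.3 ± 2.05 and 55.2 ± 1.84 CPM, 4.98-fold and 4.47-fold the LC-like level, with ranges apart in both sexes. Hk2, the inducible form of muscle and growing cells, was at 103 ± 10.7 CPM in male suprabasal and 67.6 ± 7.01 in male basal cells, and at 149.8 ± 9.01 and 91.2 ± 7.39 in females. Suprabasal exceeded basal cells in 6 of 6 libraries of each sex, by 1.52-fold and 1.64-fold. T cell-like cells held the highest Hk2 mean (171 ± 81.9 and 184 ± 81.5 CPM), in a range that overlapped that of other classes. Among cells of 3000 to 20000 UMIs the T cell-like class of males, whose median cell had 953 to 2063 UMIs in all, changed places. It went from highest to lowest for Hk2, Hk1 and Slc2a3. It also became the lowest for Pfkl and the highest for Slc2a1 and Gapdh, so its place in the male orders is not settled. Hk2 in terminally differentiated cells was at 118 ± 13.7 CPM in males and 72.5 ± 11.1 in females.

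Of the upper glycolytic enzymes, Pfkl (liver-type phosphofructokinase) was at 41.2 ± 5.65 CPM in suprabasal and 35.4 ± 4.36 in basal cells of males, and at 31.3 ± 5.45 and 34.3 ± 4.20 in females. LC-like cells had 14.4 ± 3.45 and 18.3 ± 1.53 CPM, below basal cells with ranges apart. Aldoa was at 392 ± 63.4 CPM in male LC-like, 362 ± 107 in T cell-like, 349 ± 30.8 in suprabasal, 295 ± 35.1 in terminally differentiated, 276 ± 21.5 in migratory, 240.3 ± 23.7 in basal and 172 ± 12.4 in proliferating cells. In females it was at 307 ± 81.7 in T cell-like, 235 ± 22.0 in LC-like, 228 ± 18.0 in suprabasal, 187 ± 17.8 in migratory, 182 ± 20.4 in basal, 106 ± 12.2 in proliferating and 102 ± 21.0 CPM in terminally differentiated cells. Aldoa in LC-like cells exceeded the basal level in 6 of 6 libraries of each sex, by 1.63-fold and 1.29-fold.

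Gapdh was at 781 ± 112 CPM in proliferating, 688 ± 98.3 in basal, 686 ± 168 in T cell-like, 653 ± 65.1 in LC-like, 499 ± 64.7 in migratory and 455 ± 58.8 in suprabasal cells of males, and ranges overlapped down this order. Terminally differentiated cells stood apart at 147 ± 88.8 CPM. In females T cell-like cells had 714 ± 194, proliferating 601 ± 57.7, basal 530.1 ± 61.2, LC-like 438 ± 69.6, migratory 397 ± 50.7, suprabasal 366 ± 40.4 and terminally differentiated cells 113 ± 47.0 CPM. Basal over terminally differentiated was 4.67 and 4.69. Gapdh and several of the other enzymes have many processed copies in the genome, and reads that match more than 1 place may have been left out of the counts.

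Pgk1 was highest in male proliferating cells, at 205 ± 11.9 CPM, and lowest in terminally differentiated cells, at 48.4 ± 14.6. In females T cell-like cells had 201 ± 43.7, proliferating cells 181 ± 11.5, in an overlapping range, and terminally differentiated cells 33.9 ± 13.5 CPM. Proliferating exceeded basal cells in 6 of 6 libraries of each sex, by 1.31-fold and 1.37-fold. Ldha followed another order. Male suprabasal cells had 616 ± 45.2 CPM, proliferating 493 ± 29.0, basal 412 ± 21.2, migratory 318 ± 42.3, T cell-like 274 ± 41.9, LC-like 248 ± 24.7 and terminally differentiated cells 169.6 ± 48.2, and the first 3 of these did not overlap. Female suprabasal cells had 441 ± 36.0, T cell-like 416 ± 100, proliferating 410.2 ± 25.4, basal 370.4 ± 29.8, migratory 255 ± 21.1, LC-like 212 ± 17.5 and terminally differentiated cells 97.1 ± 39.8 CPM. Basal cells held 1.66-fold and 1.74-fold the LC-like level, and suprabasal cells 1.5-fold and 1.19-fold the basal level, in 6 of 6 libraries of each sex.

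Levels in terminally differentiated cells were lower still with doublets removed. The female means there went from 10.1 to 2.63 CPM for Txnip, from 13.1 to 2.48 for Slc2a1, from 113 to 23.6 for Gapdh and from 97.1 to 32.0 for Ldha. In males Slc2a1 went from 5.37 to 2.56 and Pgk1 from 48.4 to 30 CPM. With the pathway genes kept in the clustering, some female means there rose instead. Hk1 went from 9.39 to 17.2, Hk2 from 72.5 to 109, Pfkl from 5.52 to 8.22 and Aldoa from 102 to 158 CPM. Terminally differentiated cells were then no longer the lowest female class for Hk1 or Aldoa. 

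Within keratinocytes, the clusters gave a finer order. From the Dlk2-led basal cluster over the 3 suprabasal clusters, ranked by their Krt10 level, to the terminally differentiated cluster, Txnip had means of 104, 55.8, 27.2, 12.3 and 9.01 CPM in males. In females it had 99.0, 56.3, 20.5, 8.94 and 10.1 CPM. Slc2a1 fell in the same way, over 46.8, 26.5, 19.7, 14.9 and 5.37 CPM in males and 109.8, 63.8, 36.9, 18.7 and 13.1 in females, and Gapdh over 706, 587, 446, 280 and 147 in males and 530.1, 448, 327, 122 and 113 in females. The layouts of Txnip, Slc2a1 and Gapdh thus descended at every step but the last of Txnip in females.

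Hk2 ran the other way up to the last suprabasal cluster, with 65.4, 82.7, 101, 135 and 118 CPM in males and 91.2, 137, 157, 183 and 72.5 in females. Ldha peaked in between, with 422, 581, 694, 526 and 169.6 CPM in males and 370.4, 432, 468, 246 and 97.1 in females. Aldoa rose to 365 CPM in the middle suprabasal cluster of males and to 260 in the last one of females, from 243 and 182 in the basal cluster. Pfkl was highest in the first suprabasal cluster of each sex, at 45.5 and 34.8 CPM, and Pgk1 likewise at 188 and 149 CPM. The enzymes of the one pathway therefore did not share a single profile over differentiation.

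**Figure D2:**
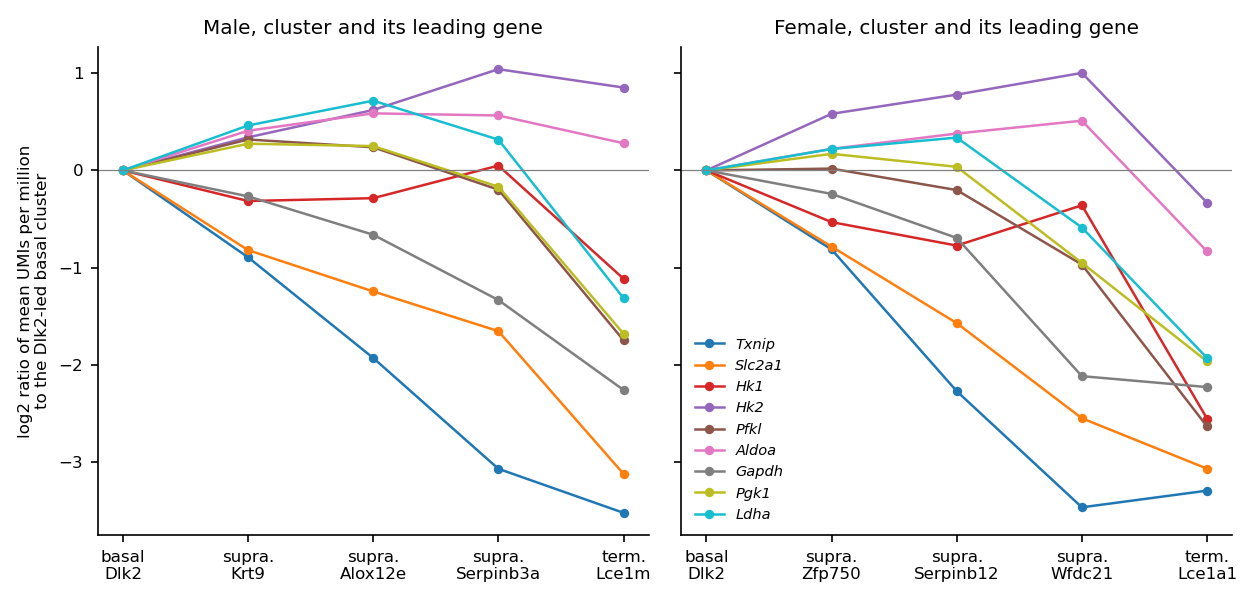
Level of 9 genes in each keratinocyte cluster as a log2 ratio to the Dlk2-led basal cluster of the same sex, with suprabasal clusters ordered by their Krt10 level. Txnip, Slc2a1 and Gapdh descend towards the terminally differentiated cluster, Hk2 ascends over the suprabasal clusters, and Ldha peaks within them.

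Other genes of the pathway were taken from lists of transporters, arrestin-fold and glucose-sensing genes, hexokinases, upper and lower glycolysis, lactate and pyruvate, pentose phosphate, glycogen and HIF1 targets outside glycolysis, 96 genes with the 10. Arrdc4, an arrestin-domain relative of Txnip that also lowers glucose uptake, ran against Txnip from basal over suprabasal to terminally differentiated cells, though not in migratory cells, where both were high. It was at 290.0 ± 25.7 CPM in male terminally differentiated cells and 43.7 ± 1.68 in basal cells, and at 198 ± 40.7 and 27.6 ± 5.25 in females. T cell-like cells, the highest for Txnip, had 10.9 ± 12.1 and 9.17 ± 1.56 CPM of Arrdc4.

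Among transporters, Slc5a1, which encodes the sodium-coupled transporter SGLT1, was at 90.3 ± 13.6 CPM in male and 92.5 ± 13.4 in female suprabasal cells, where Slc2a1 was at 20.8 and 47.3. Slc5a1 in basal cells was at 5.29 and 1.26 CPM. Slc2a6 (GLUT6) was the second transporter of LC-like cells, at 22.3 ± 5.28 and 7.48 ± 2.19 CPM, and at most 1.00 CPM in any keratinocyte class.

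**Figure D3:**
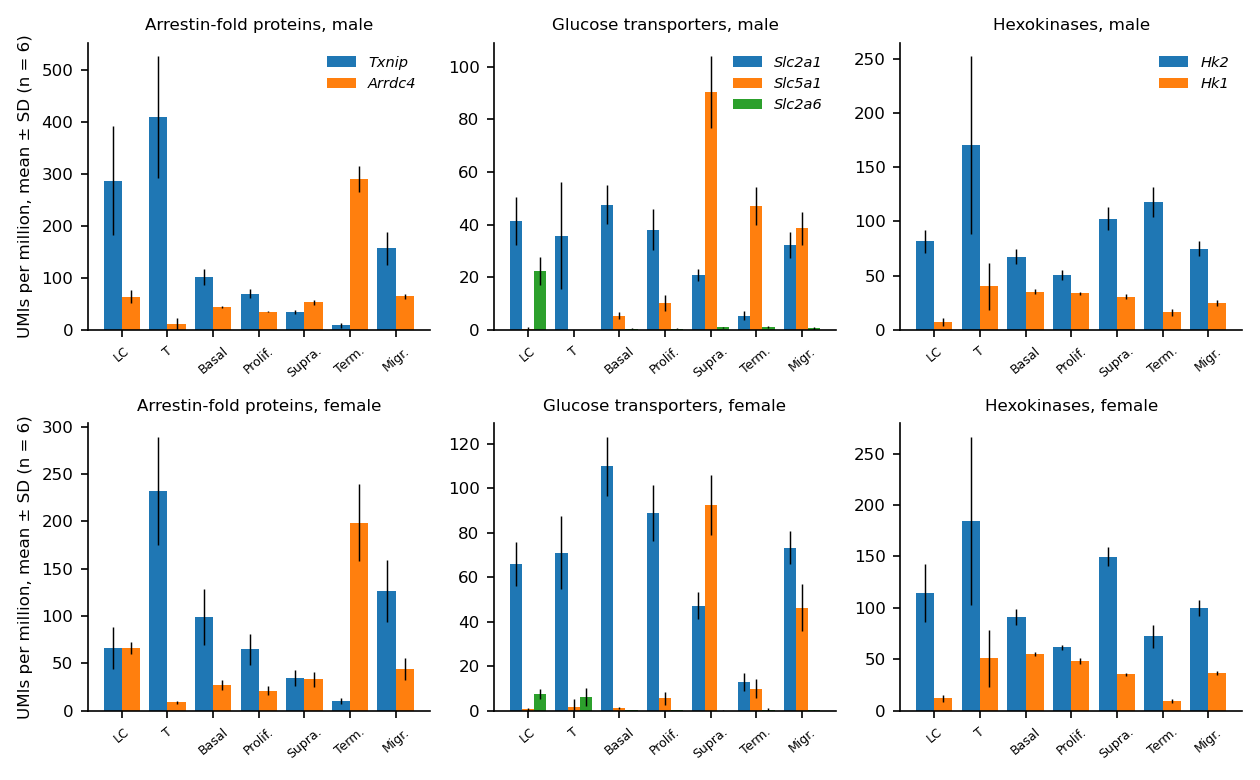
Mean level ± SD (n = 6 libraries) in CPM of Txnip with Arrdc4, of Slc2a1 with Slc5a1 and Slc2a6, and of Hk2 with Hk1, over 7 cell classes and both sexes. Arrdc4 reaches 290.0 CPM in male terminally differentiated cells, where Txnip is at 9.01 CPM, and Slc5a1 stands above Slc2a1 in suprabasal cells.

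Elsewhere on the lists, Txn1, the thioredoxin that Txnip binds, led its list in every class of both sexes, up to 1999.8 ± 230.3 CPM in male proliferating cells. Gpi1 was second to Aldoa in LC-like cells, at 244 ± 25.1 and 152 ± 13.8 CPM, and Tpi1 led upper glycolysis in proliferating cells, at 287 ± 19.4 and 205 ± 13.3. Pkm was second to Gapdh in all 7 classes of both sexes. Mpc1, a subunit of the mitochondrial pyruvate carrier, led the lactate and pyruvate list in LC-like cells, at 322 ± 46.4 and 307 ± 44.2 CPM, where Ldha led it in basal, proliferating and suprabasal cells. Of HIF1 targets, Ndrg1 was at 549.6 ± 46.6 and 716 ± 123 CPM and Vegfa at 172 ± 38.9 and 224 ± 42.4 in LC-like cells, against at most 137 and 31.7 CPM in any keratinocyte class. Bhlhe40 went the other way and led this list in basal, proliferating, suprabasal and migratory cells of both sexes. It was at 381 ± 43.5 and 409 ± 27.5 CPM in basal cells, and at 182 ± 61.9 CPM in male LC-like cells. Terminally differentiated cells led in Egln3 (249.6 ± 47.0 and 178 ± 84.5) and Bnip3 (125 ± 9.81 and 183 ± 35.4).

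Per cell, classes differ in depth, so each cell was thinned to 2000 UMIs before shares of cells with a UMI were counted. Of male LC-like cells, 33.8% ± 8.94 (SD, n = 6) then had a Txnip UMI, against 17.0% ± 2.26 of basal, 6.94% of suprabasal and 1.41% of terminally differentiated cells. Without thinning, the LC-like and basal shares were 50.6% and 43.0%. Of female LC-like cells 11.2% ± 3.5 had a Txnip UMI, against 17.1% ± 4.33 of basal and 30.4% ± 5.79 of T cell-like cells, and 26.6%, 44.4% and 40.1% without thinning. Gapdh was seen in 72.0% and 63.9% of male and female basal cells and in 15.6% and 12% of terminally differentiated cells.

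Ldha was seen in 67.0% and 55.6% of thinned suprabasal cells and Hk2 in 16.9% and 22.4%. Slc2a3 was seen in at most 0.751% of the cells of any class other than female T cell-like cells, where its share was 2.64% ± 2.33. As measures of free RNA, Krt14 was seen in 24.6% and 10.4% of thinned LC-like cells and Cd74 in 0.427% and 0.650% of basal cells. The share of Slc2a3 was 0.126% in male and 0.396% in female basal cells. Thinning left out 56 of 1066 male and 43 of 1811 female LC-like cells, and 152 of 192 male T cell-like cells, whose shares are not given. Median UMIs per library ran from 2640 to 5537 in male and from 5478 to 7347 in female LC-like cells, and from 4440 to 9826 and 6839.5 to 10594 in basal cells.

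The genes whose levels were most like each member over 42 class-by-library profiles per sex were taken from 5742 genes, by the mean over sexes of Pearson's r of log2(CPM + 1). For Txnip they were Zfp36l2 (0.95) and Lnpep (0.93), for Slc2a1 C1galt1 (0.94) and Ttc14 (0.93), and for Gapdh Akr1b3 (0.96) and Rbm3 (0.95). Pgk1 was most like Pkm and Vdac2 (both 0.91) and Ldha most like Timm23 and Pgam1 (both 0.92), so that the glycolytic enzymes Pkm and Pgam1 appeared beside members of their own pathway. The remaining members had Bzw2 (0.83) and Wee1 (0.82) for Hk1, Arl5b (0.79) and Kif1b (0.74) for Hk2, Ak6 (0.86) and Cfdp1 (0.82) for Pfkl, Sqstm1 and Leprotl1 (both 0.76) for Aldoa, and Sra1 and Tbc1d5 (both 0.68) for Slc2a3. Between members, r was 0.81 in males and 0.96 in females for Gapdh with Pgk1, 0.77 and 0.92 for Pgk1 with Ldha, and −0.58 and 0.28 for Hk2 with Pgk1. These profiles share libraries and depth, and the values of r are descriptions.

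To see whether HFD changed these genes, the UMIs of each class were summed per library and HFD was compared with RD within each sex by the quasi-likelihood test of edgeR, adjusted over all genes tested in the class. Of the 10 genes, 1 changed in 1 class: Pfkl was higher in suprabasal or spinous keratinocytes of HFD females, by 0.42 on the log2 scale. In females Pfkl was also positive in the other 5 classes tested, and Slc2a3 in all 4 classes tested, without passing the threshold. The same held for Aldoa and Ldha in all 7 female classes and for Slc2a1 in all 6 tested. Txnip, Hk1 and Hk2 were negative in 5 female classes each, Pgk1 in 4 and Gapdh in 1. Classes of a sex come from the same mice, so like signs over classes are not independent. In males no gene of the 10 passed it in any class. The nearest were Gapdh and Pgk1, lower in terminally differentiated cells of HFD males, and Txnip, higher in their LC-like cells.

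In males 55 of 60 pairs of a gene and a class could be tested, and 0 were called by edgeR at an adjusted p under 0.05. At an unadjusted p under 0.05 there were 8 (14.5%, against 10.8% of all pairs tested in males), of which 4 lay in terminally differentiated cells, and DESeq2 called 2 (3.64%, against 1.06%). Of all genes tested in males, 0.169% were called in LC-like cells and 0% each in basal, proliferating, suprabasal, terminally differentiated and migratory cells. The log2 fold change was positive in 20 of the 55 pairs and negative in 35. Every HFD library lay above every RD library in 1 pair and below in 5, where the same held for 4.77% and 11.1% of all gene and class pairs tested in males.

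In females 64 of 70 pairs could be tested and 1 was called, with 14 at an unadjusted p under 0.05 (21.9%, against 15.8% of all pairs tested in females). Of all genes tested in females, 1.07% were called in LC-like, 0.279% in T cell-like, 0.937% in basal, 1.8% in proliferating, 2.4% in suprabasal, 0% in terminally differentiated and 0.264% in migratory cells. The log2 fold change was positive in 44 pairs and negative in 20. HFD libraries lay above all RD libraries in 11 pairs and below in 1, against 12.2% and 8.45% of all pairs tested in females. Of the 11, Pfkl gave 5 and Slc2a3 gave 3.

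**Figure D4:**
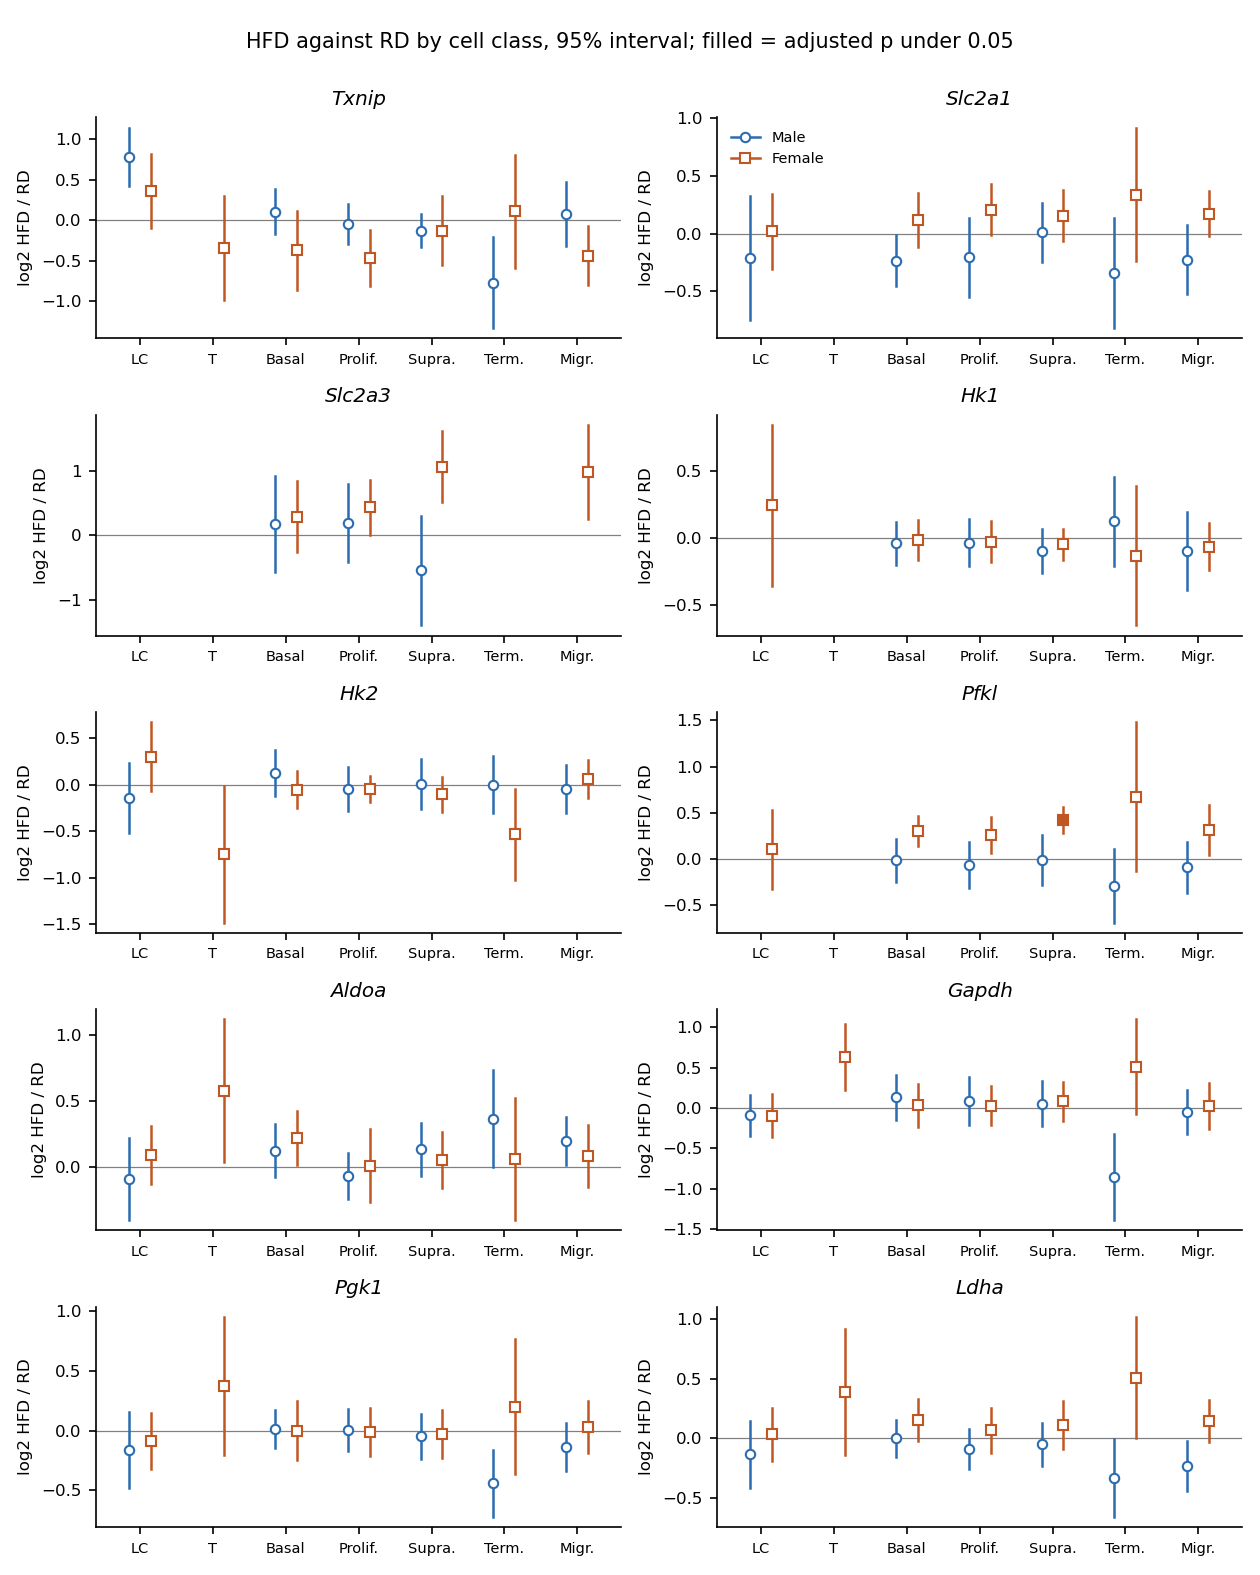
Log2 fold change of HFD over RD for each of the 10 genes in each class, by sex, with 95% intervals from edgeR (n = 3 libraries per diet); a filled point has an adjusted p under 0.05. The only filled point is Pfkl in female suprabasal cells, at 0.42.

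Pfkl in female suprabasal cells was at 25.8, 26.2 and 27.1 CPM in Female RD replicates 1 to 3 and at 36.2, 35.8 and 36.7 CPM in Female HFD replicates 1 to 3. The HFD libraries were all above the RD libraries, with little spread within a diet in CPM. After the scaling used by the test (TMM) the values were 25.8, 26.8 and 27.6 on RD and 36.9, 33.5 and 36.8 on HFD. They were still apart, with Female HFD replicate 2 the lowest on HFD. The log2 fold change was 0.42 (SE 0.06, 95% interval 0.28 to 0.56, adjusted p = 0.0235). In basal cells Pfkl was at 29.5, 32.1 and 30.4 CPM on RD and 36.5, 38.0 and 39.5 on HFD (0.30, adjusted p = 0.0874), and in proliferating cells at 27.0, 28.8 and 27.0 against 33.3, 31.4 and 36.3 (0.26, adjusted p = 0.138).

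In female migratory cells Pfkl was at 18.9, 18.7 and 20.2 CPM on RD and 20.4, 26.6 and 26.0 on HFD (0.31, adjusted p = 0.276), and in terminally differentiated cells at 2.14, 3.20 and 6.19 against 8.48, 6.80 and 6.34 (0.68, adjusted p = 0.679). In CPM the diets did not overlap in these 5 keratinocyte classes and overlapped in LC-like cells (0.10). In terminally differentiated cells, Female RD replicate 3 (6.19 CPM) and Female HFD replicate 3 (6.34 CPM) had TMM factors of 0.911 and 1.21. After this scaling the diets overlapped in that class. In males the 5 classes tested had negative log2 fold changes and overlapping diets, and in suprabasal cells the value was −0.01 with an interval of −0.28 to 0.26.

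The call for Pfkl was lost with a replicate block, and also without any 1 of 4 of the 6 female libraries. Its adjusted p was 0.111 without Female RD replicate 1, 0.108 without Female RD replicate 2, 0.103 without Female RD replicate 3 and 0.077 without Female HFD replicate 3, and it stayed at 0.0349 and 0.00695 without Female HFD replicates 1 and 2. The summed level of the basal markers in female suprabasal cells was 1848 to 2206 CPM on RD and 2258 to 2414 on HFD, and 9 of 10 genes of dissociation stress, which are induced when tissue is dispersed into single cells, had positive values there, with a median log2 fold change of 0.11 against 0.0036 over all genes. The part of either in the result was not tested. Pfkl itself was at 34.3 CPM in female basal and 31.3 CPM in female suprabasal cells.

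Slc2a3 in female suprabasal cells was at 0.361, 0.466 and 0.340 CPM on RD and 0.673, 1.09 and 0.793 on HFD, from 77 and 158 UMIs in all. Its log2 fold change was 1.06 (SE 0.24, adjusted p = 0.0567). In migratory cells it was at 2.31, 1.05 and 1.43 against 3.83, 3.34 and 2.58 CPM (0.99, adjusted p = 0.208), and in proliferating cells at 1.69, 1.41 and 1.74 against 1.85, 2.21 and 2.58 (0.43, adjusted p = 0.254). HFD was above RD without overlap in all 3, at levels of at most 3.83 CPM. Over both diets Slc2a3 was at 2.16 CPM in female basal, 0.620 in suprabasal, 1.91 in proliferating and 2.42 in migratory cells. Basal markers were also higher on HFD without overlap in these 3 classes, as given below for Arrdc4. Their part in the Slc2a3 result was not tested. In male suprabasal cells the log2 fold change was −0.54.

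Txnip in male LC-like cells was at 187, 190.1 and 254 CPM in Male RD and 467, 286 and 335 CPM in Male HFD replicates 1 to 3. All HFD libraries were above all RD libraries, and Male HFD replicate 1 was the highest. The log2 fold change was 0.78 (SE 0.17, 95% interval 0.42 to 1.14, adjusted p = 0.0944), and DESeq2 gave an adjusted p of 0.0495. With 1 library left out, the adjusted p of edgeR ran from 0.0935 to 0.425. An alternative chosen after seeing the data added the whole left-out subcluster, cut from the pooled LC-like and T cell-like clusters, to LC-like cells. The log2 fold change of Txnip was then 1.05 with an adjusted p of 0.584. T cell markers, from the class with the highest Txnip, summed to 3.20 to 6.75 CPM in male LC-like cells on RD and 6.28 to 31.4 on HFD, against at least 5663 CPM in male T cell-like cells. The 4 keratins Krt1, Krt5, Krt10 and Krt14 summed to 634 to 934 on RD and 545 to 973 on HFD. The part of either in the result was not tested.

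In female LC-like cells Txnip was at 52.3, 47.3 and 71.7 CPM on RD and 106, 50.4 and 69.3 on HFD, and the diets overlapped (0.36, adjusted p = 0.511). Female basal cells had 137, 87.2 and 109.8 CPM on RD and 70.4, 124 and 65.3 on HFD (−0.37, adjusted p = 0.466), proliferating cells 88.3, 60.3 and 75.6 against 51.0, 71.0 and 43.6 (−0.46, adjusted p = 0.142), and migratory cells 168, 99.9 and 168 against 109, 119.9 and 96.3 (−0.44, adjusted p = 0.252). The diets overlapped in all 3, and in each Female HFD replicate 2 was the highest of the HFD libraries. Without Female HFD replicate 2, Txnip passed the threshold in basal (−0.70, adjusted p = 0.0297) and proliferating cells (−0.65, adjusted p = 0.0289) of females, in fits that called 2193 pairs of a gene and a class over all female classes against 894 with all libraries. It passed in none of the other 5 such fits in either class, and in proliferating cells the adjusted p went up to 0.366 and the log2 fold change came down to −0.33.

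**Figure D5:**
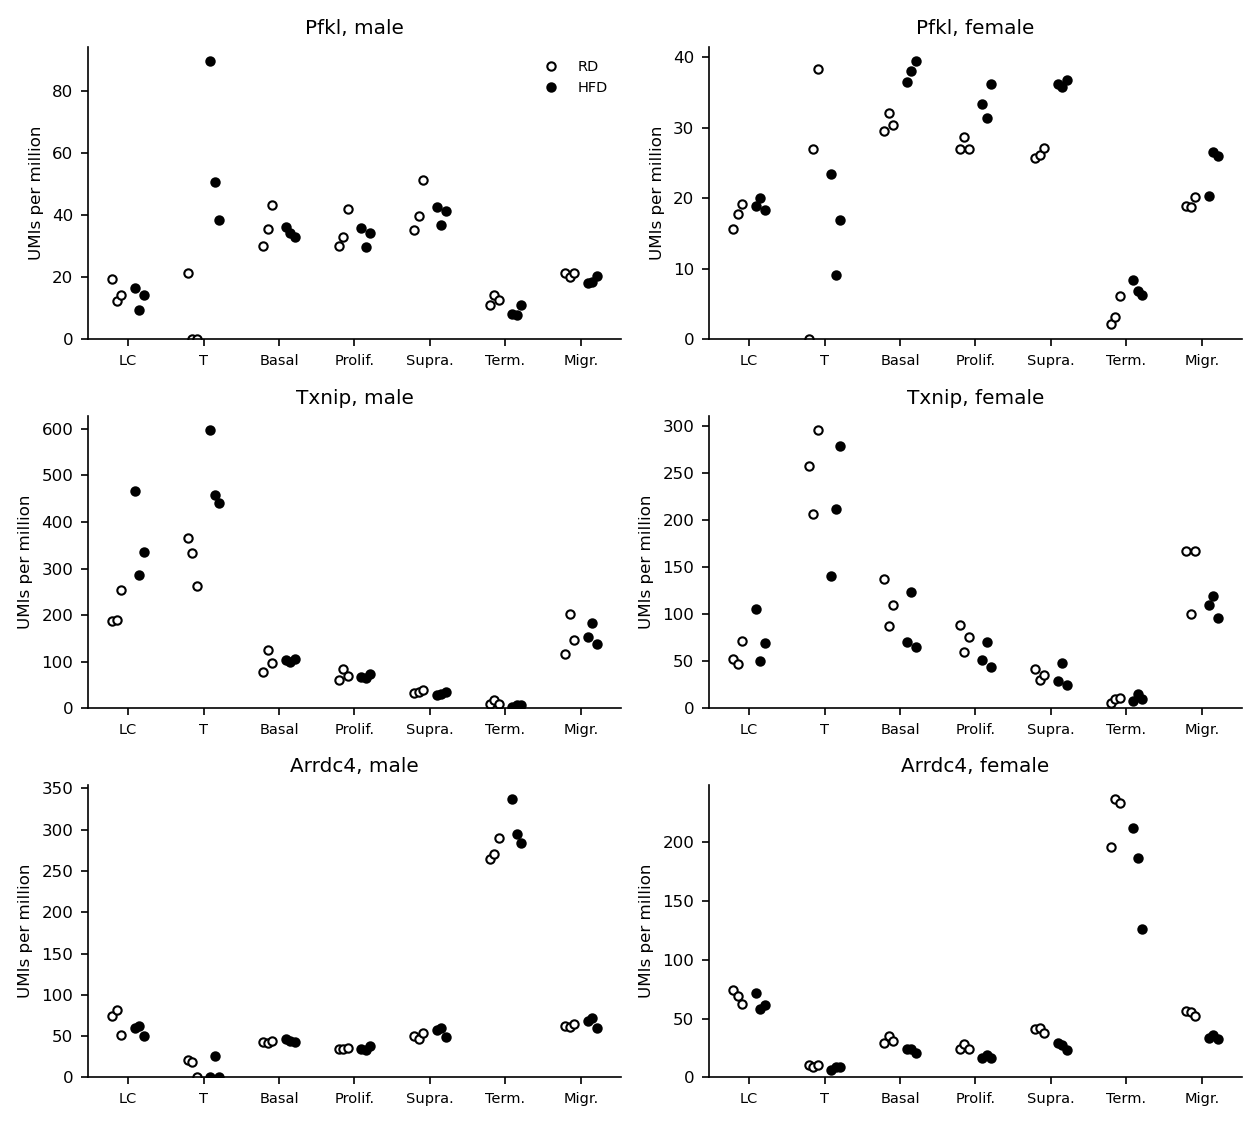
Levels of Pfkl, Txnip and Arrdc4 in CPM in each library by diet and class, with 1 point per library (n = 3 per diet and sex). Pfkl in female suprabasal cells lies at 25.8 to 27.1 CPM on RD and 35.8 to 36.7 CPM on HFD, Txnip in male LC-like cells at 187 to 254 and 286 to 467 CPM, and Arrdc4 in female suprabasal cells at 37.9 to 41.7 and 23.0 to 29.1 CPM.

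In terminally differentiated cells of males 3 of the 10 genes were lower in every HFD library. Gapdh was at 172, 316 and 114 CPM on RD and 74.2, 112 and 96.6 on HFD (−0.85, SE 0.24, adjusted p = 0.0765). Pgk1 was at 56.6, 73.0 and 47.6 against 32.4, 40 and 40.6 CPM (−0.44, SE 0.13, adjusted p = 0.0793), and Txnip at 9.31, 17.9 and 8.73 against 3.72, 7.13 and 7.26 (−0.77, SE 0.25, adjusted p = 0.1). Male RD replicate 2 was the highest library for all 3. Without Male RD replicate 3, Gapdh (adjusted p = 0.0223) and Pgk1 (adjusted p = 0.0448) passed the threshold, in a fit that called 1414 genes of this class against 0 with all libraries. In none of the other 5 fits with 1 library left out did either pass, and the adjusted p went up to 0.249 for Gapdh and 0.263 for Pgk1. Without Male RD replicate 2 the log2 fold change of Gapdh was −0.50. Of the 10 genes of dissociation stress, 8 had positive values here, with a median of 0.31 against −0.02 over all genes, and their part in these values was not tested.

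The same libraries differed in other ways. Basal markers in male terminally differentiated cells summed to 1849 to 3504 CPM on RD and 706 to 1626 on HFD, and proliferating markers to 115 to 193 on RD and 39.0 to 92.7 on HFD, neither overlapping. Doublets were called for 16.4% to 24.7% of these cells on RD and for 9.31% to 18.0% on HFD. With doublets removed the log2 fold change of Gapdh was −1.10 with an adjusted p of 0.0683. In this class 2768 of 9911 genes had an unadjusted p under 0.05, and every HFD library was below every RD library for 19.8% of genes. The part of basal transcripts in these differences was not tested.

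T cell-like cells of females gave 6 testable genes. Gapdh was at 471, 630.1 and 576 CPM on RD and 863, 745 and 996 on HFD, without overlap (0.63, SE 0.19, adjusted p = 0.297). Aldoa had a log2 fold change of 0.58 (adjusted p = 0.536) and Hk2 of −0.75 (adjusted p = 0.561), each with overlap. In the same libraries the 4 keratins summed to 806 to 2313 CPM on RD and 478 to 709 on HFD. Suprabasal markers summed to 954 to 1015 on RD and 616 to 789 on HFD. Stress genes of dissociation summed to 6298 to 9028 and 5603 to 6437, with overlap. The part of these sums in the result was not tested. Male T cell-like cells were too few for a test, with 19 to 55 cells per library. Their Txnip was at 365, 332 and 262 CPM on RD and 597, 457 and 442 on HFD, and their Gapdh at 644, 499 and 546 against 941, 660.2 and 825. Aldoa there was at 236, 277 and 306 against 493, 381 and 479.9 CPM. These values rest on 128 UMIs for Txnip, 214 for Gapdh and 113 for Aldoa over the 6 male libraries. The share of all genes with such a separation was not counted in this class, and the other members are not given here by diet. Stress genes of dissociation summed to 10304 to 12574 CPM on RD and 7756 to 8761 on HFD in these male cells. LC markers summed there to 1533 to 1965 CPM on RD and 2158 to 2630 on HFD, without overlap, and T cell markers to 9454 to 11741 and 5663 to 10187. LC-like cells are among the highest for Aldoa and Txnip in males, and the part of these sums in the result was not tested.

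Slc2a1, the hexokinases, Aldoa and Ldha gave no call in either sex. Slc2a1 overlapped between diets in all classes tested in both sexes, with log2 fold changes from −0.34 to 0.01 in males and from 0.02 to 0.34 in females. Hk1 in basal cells had intervals of −0.20 to 0.12 in males and −0.17 to 0.13 in females. Hk2 had no adjusted p under 0.502, and its female terminally differentiated cells, at 76.9, 87.7 and 78.9 CPM on RD and 62.6, 71.2 and 57.4 on HFD (−0.53, adjusted p = 0.632), were the one class in which the diets did not overlap. Aldoa in female basal cells was at 175, 177 and 152 CPM on RD and 204, 178 and 207 on HFD (0.22, adjusted p = 0.299). Ldha there was at 352, 357 and 342 against 389, 361 and 422 CPM (0.15, adjusted p = 0.392). Ldha in male migratory cells was at 333, 344 and 370.1 against 257, 278 and 326 CPM (−0.23, adjusted p = 0.789), while basal markers in those cells summed to 13778 to 15656 on RD and 11849 to 12732 on HFD, a part that was not tested.

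For all 10 genes together, the median log2 fold change in males was −0.14 in LC-like, 0.06 in basal, −0.05 in proliferating, −0.03 in suprabasal, −0.34 in terminally differentiated and −0.09 in migratory cells. In females it was 0.09 in LC-like, 0.38 in T cell-like, 0.07 in basal, 0.02 in proliferating, 0.07 in suprabasal, 0.20 in terminally differentiated and 0.07 in migratory cells. Over all genes tested the medians lay between −0.02 and 0.03. Only the genes that passed the filter on low counts enter these medians.

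Of the 96 genes of the pathway lists, between 46 and 82 could be tested per class in males. Of those 429 pairs of a gene and a class, edgeR called 0 and DESeq2 called 6 (1.4%), and 50 (11.7%) were under 0.05 before adjustment, near the shares over all genes given above. In females between 25 and 87 could be tested. The counts called were 1 lower of 63 in LC-like, 1 lower of 84 in basal, 3 lower of 85 in proliferating, 2 higher and 2 lower of 87 in suprabasal and 1 lower of 80 in migratory cells, and 0 of 25 in T cell-like and 0 of 56 in terminally differentiated cells, where 4 genes each had an unadjusted p under 0.05 and DESeq2 called 0. Over all female classes 85 of 480 pairs (17.7%, against 15.8% of all pairs tested) were under 0.05 before adjustment, and DESeq2 called 20 (4.17%, against 2.73%). Of the 10 calls by edgeR, Arrdc4 and Pdk1 took 3 each, all lower on HFD, and Pfkl was 1.

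Arrdc4 was lower in 3 female keratinocyte classes. In suprabasal cells it was at 40.9, 41.7 and 37.9 CPM on RD and 29.1, 27.4 and 23.0 on HFD (−0.64, SE 0.09, adjusted p = 0.0222), in migratory cells at 56.2, 55.5 and 51.8 against 33.9, 36.0 and 32.4 (−0.70, SE 0.08, adjusted p = 0.0159), and in proliferating cells at 24.3, 28.0 and 24.5 against 16.4, 18.8 and 16.1 (−0.62, SE 0.09, adjusted p = 0.0284). The diets did not overlap in any of them. Its adjusted p went up to 0.108 in suprabasal cells (lost without Female RD replicates 1, 2 or 3 or Female HFD replicate 3), to 0.109 in migratory cells (lost without Female RD replicates 1 or 2) and to 0.0827 in proliferating cells (lost without any library other than Female HFD replicate 2). Basal markers summed to 1848 to 2206 CPM on RD and 2258 to 2414 on HFD (suprabasal), to 11585 to 12150 and 12557 to 12800 (migratory) and to 13300 to 14111 and 14371 to 15080 (proliferating). Migratory markers in migratory cells summed to 14997 to 19047 and 11575 to 14226, suprabasal markers there to 11290 to 13224 and 10297 to 11187, and proliferating markers in proliferating cells to 2388 to 2708 and 2791 to 3144. None of these overlapped between diets, and their part in the Arrdc4 result was not tested. In males Arrdc4 overlapped between diets, at 50.2, 46.9 and 53.3 CPM on RD and 57.0, 60.3 and 49.2 on HFD in suprabasal cells.

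Pdk1, a kinase that inhibits the pyruvate dehydrogenase complex, was lower in female basal cells, at 55.8, 50.6 and 51.2 CPM on RD and 38.9, 38.0 and 38.5 on HFD (−0.45, adjusted p = 0.0245). In proliferating cells its log2 fold change was −0.38 (adjusted p = 0.0284), and suprabasal cells had 35.4, 33.7 and 34.7 against 27.5, 27.9 and 27.8 CPM (−0.36, adjusted p = 0.0248). With 1 library left out, the adjusted p of Pdk1 reached 0.14, 0.114 and 0.120; the call was lost in all 3 classes without Female RD replicates 1, 2 or 3 or Female HFD replicate 3, and in basal and proliferating cells also without Female HFD replicate 1. The marker sums given for Arrdc4 in proliferating cells, and for Pfkl in suprabasal cells, hold for Pdk1 there too.

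Single calls fell on 3 further genes in females. Slc16a1, the lactate and pyruvate transporter MCT1, was lower in LC-like cells, at 14.6, 16.3 and 13.3 CPM on RD and 5.76, 6.66 and 3.92 on HFD (−1.39, adjusted p = 0.0244), with adjusted p up to 0.109 without 1 library (lost without any library other than Female HFD replicate 2) and −0.42 (adjusted p = 0.441) with the cells that carry keratinocyte transcripts. The call was also lost with DESeq2. Slc16a1 was at 71.4 CPM in female basal cells, above its LC-like level, and in LC-like cells suprabasal markers summed to 588 to 652 CPM on RD and 485 to 584 on HFD. The 10 genes of dissociation stress all had positive values in female LC-like cells, with a median log2 fold change of 0.38 against −0.0023 over all genes. The part of either in the Slc16a1 result was not tested. Pfkfb2, which makes the activator of phosphofructokinase, was lower in proliferating cells (−0.38, adjusted p = 0.0404), and Rpe of the pentose phosphate pathway was higher in suprabasal cells (0.30, adjusted p = 0.0413); both were lost without any library other than Female HFD replicate 2, with adjusted p up to 0.15 and 0.172. Both were lost among cells of 3000 to 20000 UMIs, and Pfkfb2 also with doublets removed. The marker sums given for Arrdc4 in proliferating cells hold for Pfkfb2, and those in suprabasal cells for Rpe. Their part in these results was not tested.

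The 10 stress genes of dissociation, listed apart from the 96, gave calls in females for Fos, lower in T cell-like cells of HFD mice (−1.03, adjusted p = 0.0274), and Hsp90aa1, higher in suprabasal cells, at 242, 258 and 269 CPM on RD and 319, 342 and 318 on HFD (0.30, adjusted p = 0.0485). Both calls were lost without Female RD replicates 2 or 3 or Female HFD replicates 1 or 3, and Hsp90aa1 also without Female RD replicate 1, with adjusted p up to 0.212 and 0.194. Fos was also lost with doublets removed and Hsp90aa1 with another normalization (RLE).

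Whether the diet effect differed between the sexes was tested as male minus female log2 fold change in 1 fit over all 12 libraries. For the 10 genes 58 of 60 pairs could be tested, and 0 were called by edgeR. DESeq2 called 1 (1.72%, against 1.73% of all pairs tested), and 12 had an unadjusted p under 0.05 (20.7%, against 12.8%). Of all genes tested, 0% were called in LC-like, 0.0345% in basal, 0.0415% in proliferating, 0.586% in suprabasal, 0.49% in terminally differentiated and 0.247% in migratory cells. The nearest values were −1.22 for Gapdh in terminally differentiated cells (adjusted p = 0.0926), −1.62 for Slc2a3 in suprabasal cells (adjusted p = 0.122), 0.68 for Hk2 (adjusted p = 0.14) and −0.70 for Ldha (adjusted p = 0.142) in terminally differentiated cells, and the value for Pfkl in suprabasal cells was −0.44 (adjusted p = 0.176). The Gapdh difference passed the threshold without Male RD replicate 3 (adjusted p = 0.0494) or Female RD replicate 2 (adjusted p = 0.0210), where 1269 genes of this class were called against 49 with all libraries, and in none of the other 10 such fits, in which the adjusted p went up to 0.223. That of Slc2a3 passed without Male RD replicate 2 (adjusted p = 0.0292) and in none of the other 11, with adjusted p up to 0.256. The effect of HFD on Pfkl, called in females and not in males, was thus not shown to differ between them.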

How the data were processed

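The UMI counts per gene and cell were deposited by the authors as filtered droplet matrices, raw and not normalized. The file headers name Cell Ranger 6.1.0 (male) and 7.2.0 (female), and the submitters' notes list Cell Ranger 7.2.0, Seurat 5.0.0 and mm10; whether introns were counted is not given in the sources used here. The members and gene lists were chosen with earlier results of these data known.

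Kept were cells with 200 (males) or 500 (females) to 6000 genes whose mitochondrial share of UMIs was 5% or less. Within each sex, 10 principal components of 2000 variable genes, with the pathway genes left out, were clustered on 20 neighbours (leidenalg 0.10.2), and clusters were named where at least 3 fixed markers stood out. The LC-like and T cell-like clusters were subclustered together, and a subcluster with keratinocyte transcripts was left out. No doublet caller was run in the main analysis; removing cells with the highest doublet scores, 0.8% per 1000 barcodes, was an alternative.

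UMIs were summed per library and class, so the mouse is the replicate and p-values measure the spread between 3 mice per group. Classes with at least 20 cells in every library were tested by edgeR 4.0.16 (filterByExpr, TMM, quasi-likelihood test, two-sided, R 4.3.3) with Benjamini-Hochberg adjustment over all genes of a class and a threshold of 0.05. The test was checked on simulated data. DESeq2 1.42.0, other normalization, filters, clusterings and depths, a replicate block and leaving out each library were the alternatives. Adding the whole left-out subcluster to the LC-like class was an alternative chosen after seeing the data. Intervals are 95% model intervals. The report gives the range of depth over libraries.

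Named were all 10 members, other list genes called in a comparison (at most 5 each), the 2 highest genes of a list in a class, and the 2 genes most like a member among those at 20 CPM or more. Values of Arrdc4, Slc5a1, Slc2a6, Vegfa, Ndrg1 and Slc16a1 in classes outside that rule were added after they were seen. Mature proteins and the Slc2a3 promoter were not used here.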

Additional observations from a re-analysis of the deposited data

Results flagged for a closer look

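The effect of HFD on Arrdc4, the arrestin-domain relative of Txnip, passed the interaction test of edgeR for a difference between the sexes. Male minus female log2 fold change was 0.83 in suprabasal cells (SE 0.14, adjusted p = 0.0369) and 0.79 in migratory cells (SE 0.13, adjusted p = 0.0163). Female HFD libraries were all below female RD libraries in both classes, while male diets overlapped, at 62.3, 61.2 and 64.7 CPM on RD and 68.0, 71.4 and 59.2 on HFD in migratory cells. With 1 library left out, the adjusted p ran from 0.0202 to 0.109 in suprabasal and from 0.0157 to 0.0681 in migratory cells, and the call held in 3 and 8 of 12 such fits. The call was lost among cells of 3000 to 20000 UMIs in both classes, in suprabasal cells also with the replicate block (adjusted p = 0.0768), and in migratory cells also with doublets removed and with a mitochondrial limit of 10%. In migratory cells basal markers summed to 13778 to 15656 CPM on RD and 11849 to 12732 on HFD in males. In females they summed to 11585 to 12150 on RD and 12557 to 12800 on HFD. Neither overlapped between diets, and the shift was in opposite directions in the sexes. Its part in the Arrdc4 difference was not tested. Sex and counting software cannot be told apart.

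Fbp1, a gluconeogenic enzyme, was flagged in migratory cells by the same test, with a male minus female value of 8.06 (adjusted p = 0.0310). Its levels were 0.339, 0 and 0 CPM in male RD and 9.31, 3.92 and 2.55 in male HFD libraries, and 1.54, 4.49 and 0.287 in female RD and 0.287, 0.124 and 0.351 in female HFD libraries. At counts this near 0 the fitted value depends on the prior count and is no measure of size. The call held in 7 of 21 alternatives, with an adjusted p of up to 0.181, and was lost with DESeq2, with doublets removed and without 9 of 12 libraries, each left out in turn.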

How the results depend on the processing

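Calls of the 10 genes over all classes were 0 in males, 1 in females and 0 for the difference between the sexes. DESeq2 gave 2, 2 and 1, and keeping genes of low counts gave 3, 4 and 3, where over all genes DESeq2 called 685, 2069 and 1308 pairs and the low-count setting 2238, 3000 and 2018, against 10, 894 and 182. Females gave 2 with cells of 3000 to 20000 UMIs and 2 with a mitochondrial limit of 10%, in both with Slc2a3 in suprabasal cells added. With 1 library left out, the counts ran from 0 to 2 in males, 0 to 3 in females and 0 to 1 for the difference. The other alternatives, including the wider LC-like class, left these counts as they were, and no named result changed direction. With the replicate block, males gave 2 (Txnip and Gapdh in terminally differentiated cells, where it called 487 genes in all), females 0 (Pfkl in suprabasal cells at an adjusted p of 0.0521) and the difference 0. Among the other named genes the block also ended the female calls of Pdk1 in all 3 classes, Pfkfb2, Rpe and Hsp90aa1. Over all genes it cut female calls from 132 to 23 in basal, 259 to 23 in proliferating and 365 to 51 in suprabasal cells. Same-numbered libraries correlated at −0.372 to 0.252 after group means were removed, so the shared numbers were not taken as pairs, and every sample was closest to its own number in male basal cells alone.

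Over all genes, calls in male terminally differentiated cells went from 0 to 1414 without Male RD replicate 3, and in female suprabasal cells from 365 to 1 without Female RD replicate 1 and to 1007 without Female HFD replicate 2; the cause was not tested. Calls in LC-like cells went from 98 to 6 in females and from 10 to 0 in males when cells with keratinocyte transcripts were kept. Of 710 class levels under the alternatives, 61 moved by more than 1 SD, 26 of them by over 1.5 times. Over 120 orders of the classes under the alternatives, the highest class was kept in 114 and the lowest in 113, the exceptions being mostly males at 3000 to 20000 UMIs. Depth limited Slc2a3 throughout, and male T cell-like cells, 19 in 1 library, fell short of the 20 cells a test needed.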
